A study of Mus musculus with 6 samples.

Results

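The interferon-induced transmembrane (IFITM) genes of the mouse were examined in 2 populations of bone marrow myeloid cells. The 7 genes are Ifitm1, Ifitm2, Ifitm3, Ifitm5, Ifitm6, Ifitm7 and Ifitm10. They were selected by name, as every probe set that the platform annotation pairs with 1 of these symbols alone; each gene had 1 such probe set, among 34945 single-symbol probe sets for 18193 genes. The selection rule uses names and no measured value, but the members and the gene lists used below were chosen with earlier results of these data known. The cells came from the femurs and tibias of C57BL/6-background mice with the Hdc-GFP reporter, in which green fluorescence reports on Hdc, whose enzyme produces histamine. Both sorted groups were CD11b+ and GFP+ or GFP-high, CD11b being a myeloid integrin. They differed in the antigen Gr1, which was low in 1 group (Gr1lo, 3 arrays) and high in the other (Gr1hi, 3 arrays). The labels name no treatment, no age and no pooling of mice. RNA was measured on Affymetrix 3' expression arrays from 100 ng of total RNA per sample. Every value is a log2 probe set value, every difference is Gr1hi minus Gr1lo, and the number of arrays limits the precision. The labels do not say that replicates came from separate animals, so the p-values measure the spread between these samples, which may be technical.

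IFITM proteins are small membrane proteins of the CD225, or dispanin, family. IFITM1, IFITM2 and IFITM3 are induced by interferons and hinder the fusion of enveloped viruses with the membranes of the cell, IFITM3 mainly in endosomes. Interferons act through receptors that activate JAK kinases and STAT factors. Type I interferon drives genes through the interferon-stimulated response element (ISRE), and interferon gamma through the gamma-activated site (GAS). IFITM5 is known from bone-forming cells, and Ifitm6 is a rodent member expressed in myeloid cells.

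The stretches before the starts of 4 members are shown because these genes had the highest readings of the family and differ in the interferon motifs they hold. They are RefSeq sequences of build GRCm38.p6, 100 bases each, written 5′ to 3′ along the gene, with motif matches in capitals and bases counted from the start as +1. The stretch of Ifitm1 (plus strand, chr7:140967976-140968075), that of Ifitm2 (minus strand, chr7:140955962-140956061) and that of Ifitm6 (minus strand, chr7:141016893-141016992) run from base -100 to base -1. That of Ifitm3 (minus strand, chr7:141010716-141010815) runs from base -71 to base 29, because its matches lie just inside the gene.

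Ifitm1: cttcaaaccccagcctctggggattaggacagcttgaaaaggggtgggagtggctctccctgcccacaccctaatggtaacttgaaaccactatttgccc
Ifitm2: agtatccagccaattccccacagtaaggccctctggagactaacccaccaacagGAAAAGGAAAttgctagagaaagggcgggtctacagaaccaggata
Ifitm3: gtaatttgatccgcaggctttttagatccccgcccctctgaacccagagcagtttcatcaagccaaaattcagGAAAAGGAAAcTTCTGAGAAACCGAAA
Ifitm6: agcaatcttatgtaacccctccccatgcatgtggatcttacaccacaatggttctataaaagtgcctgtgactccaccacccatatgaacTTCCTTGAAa

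The ISRE core was searched as GAAA, any 2 bases and GAAA again, and for the other strand as TTTC, any 2 bases and TTTC again; GAS was searched as TTCNNNGAA, which reads the same on both strands. The windows had 300 bases, 250 before the start and 50 from it, and all 7 members had at least 1 window (Ifitm10 had 3). The ISRE core stood in the windows of 2 members, Ifitm2 and Ifitm3. Ifitm2 held it once, as GAAAAGGAAA at bases -46 to -37. Ifitm3 held it 2 times within 29 bases of its start, as GAAAAGGAAA at bases 3 to 12 and as GAAACCGAAA at bases 20 to 29. Of all 32851 windows 3.44% held the ISRE core at least once and 0.225% at least 2 times. Ifitm2 and Ifitm3 also shared the longest identical run of any pair of members, 13 bases that include the common ISRE letters, whereas no other pair shared more than 10. GAS matches stood in Ifitm3 at bases 14 to 22, where TTCTGAGAA overlaps the second ISRE core, and in Ifitm6 at bases -10 to -2 as TTCCTTGAA; 8.30% of all windows held GAS. Neither motif was matched in the windows of Ifitm1, Ifitm5, Ifitm7 or Ifitm10, which says only that these letters are not in the windows searched. Among the interferon-stimulated antiviral genes listed further on, 15 of 25 with a window held the ISRE core.

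**Figure D1:**
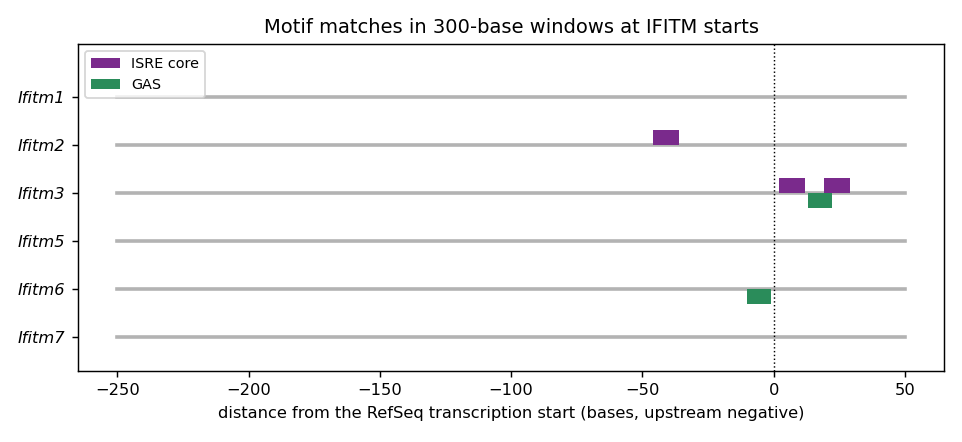
Positions of ISRE core (purple, above the line) and GAS (green, below the line) matches in 300-base windows around the RefSeq starts of 6 IFITM genes; the x axis is the distance from the start in bases, with the dotted line at the start. Ifitm2 and Ifitm3 hold ISRE matches, Ifitm3 and Ifitm6 hold GAS matches, and Ifitm10, which has 3 windows and no match, is not drawn.

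Of 12732 tested genes 24.6% were called higher and 31.8% lower in Gr1hi by limma at an adjusted p under 0.05 (56.4% in either direction), and in 30.7% all Gr1hi arrays lay above all Gr1lo arrays. The balance of directions moved with the scale: Gr1hi was the higher group in 43.6% of the called genes as deposited, 78.3% after the arrays were centred on the median of the tested genes, and 27.7% after they were centred on the hybridization controls, bacterial and phage transcripts added to every sample. The median difference of the tested genes was 0.03, 0.70 and -0.23 on these scales. Centred on the median, 8344 of the 12732 tested genes were called higher and 2316 lower. With the hybridization controls set equal, 1861 were called higher and 4849 lower. All samples are labelled female, yet Eif2s3y, a gene of the Y chromosome, read 9.02 to 10.66 on all 6 arrays. Xist, an RNA made from the silenced X chromosome, read 2.43 or lower in replicates 1 and 2 of both groups and 10.95 and 10.14 in replicate 3 of Gr1lo and Gr1hi. For Gr1lo replicate 3 the label's wording of the reporter could also mean cells without GFP. Because the replicate 3 arrays stand apart, the IFITM results are also given without them. Some neutrophil markers were strong in both groups (S100a8, which encodes a calcium-binding protein of neutrophils, read 14.82 to 14.96, near the top of the arrays). Others were not: the mean of Il1b rose from 5.24 in Gr1lo to 12.62 in Gr1hi, and that of Elane fell from 11.61 to 4.62. Probe sets naming Ly6g, Ly6c1 or Ly6c2, the genes of the Gr1 antigen, were not analysed here.

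All 6 IFITM genes that passed the filter on low values were called higher in Gr1hi, against 24.6% of all tested genes, and in each of the 6 the lowest Gr1hi array lay above the highest Gr1lo array. Ifitm1 rose 23.5-fold, Ifitm2 and Ifitm3 2.53-fold and 2.52-fold, and Ifitm10 2.04-fold. Ifitm5, near background, rose 1.38-fold and Ifitm6, near the top of the arrays, 1.30-fold, and Ifitm7 lay at the level of absent transcripts in both groups. The median difference of the 6 genes was 1.18, against 0.03 over all tested genes. Fewer cells of a kind and less RNA per cell cannot be told apart in such bulk samples.

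**Figure D2:**
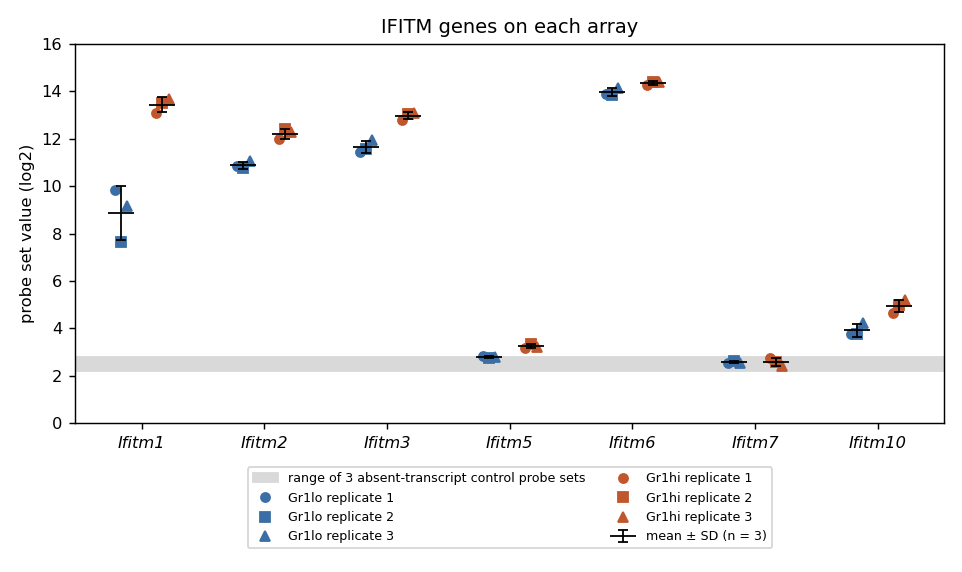
Log2 probe set values of the 7 IFITM genes on every array, Gr1lo in blue and Gr1hi in orange with 1 symbol per replicate number; bars are means ± SD (n = 3), and the grey band spans the readings of 3 control probe sets for absent transcripts (2.21 to 2.77). The groups do not overlap in 6 of the 7 genes, and the Gr1lo arrays of Ifitm1 are spread from 7.63 to 9.82.

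Ifitm1 encodes a family member that is found mostly at the cell surface. In replicate order, its readings were 9.82, 7.63 and 9.15 in Gr1lo, and 13.07, 13.51 and 13.69 in Gr1hi. The Gr1lo arrays were far apart and the Gr1hi arrays close together, yet the gap between the groups was wider than the spread within either. The means were 8.87 ± 1.12 in Gr1lo and 13.42 ± 0.32 in Gr1hi (SD, n = 3 per group). The difference was 4.56 (SE 0.45, 95% interval 3.53 to 5.58, limma adjusted p = 2.23e-05), the 89th largest of 12732 tested genes. Without the replicate 3 arrays it was 4.57 (limma adjusted p = 8.51e-04), and without Gr1lo replicate 2, the lowest array, it was 3.94.

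The spread of Ifitm1 among the Gr1lo arrays was unusual: 51 tested genes, 0.40% of all, had a Gr1lo SD as large or larger, Ifitm1 included. Of these 51, 27 were lowest in Gr1lo replicate 2, and 19 had the order of Ifitm1, from replicate 2 through 3 to 1. Markers of maturation were also at their extremes in Gr1lo replicate 2. All 7 tested mature neutrophil markers were lowest in Gr1lo replicate 2 among the Gr1lo arrays, for example the chemokine receptor gene Cxcr2 with 8.24, 7.36 and 8.07 in replicates 1, 2 and 3. The 5 tested precursor markers that fell in Gr1hi, such as the elastase gene Elane with 11.43, 12.02 and 11.38, were highest there. The other 3 precursor markers, Camp, Ltf and Ngp, were not called and were lowest there, for example Ltf with 14.18, 13.99 and 14.31. Of the mature markers, Cxcr2, Csf3r, Mmp8 and Il1b had the order of Ifitm1. Mmp9, Stfa3 and S100a8 were instead highest in Gr1lo replicate 3. The share of all genes called higher that were lowest in Gr1lo replicate 2 was not counted. The part of these patterns in the level of Ifitm1 was not tested.

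Ifitm2 and Ifitm3 encode the interferon-induced members found mainly in endosomes. Ifitm2 read 10.84, 10.77 and 11.04 on the Gr1lo arrays and 11.99, 12.40 and 12.28 on the Gr1hi arrays, in replicate order. It thus rose from 10.88 ± 0.14 to 12.22 ± 0.21 (SD, n = 3 per group), by 1.34 (SE 0.12, 95% interval 1.06 to 1.61, limma adjusted p = 1.22e-05). Ifitm3 read 11.44, 11.56 and 11.93 in Gr1lo and 12.81, 13.05 and 13.07 in Gr1hi. Every Gr1hi array of both genes was above every Gr1lo array. Ifitm3 rose from 11.64 ± 0.26 to 12.98 ± 0.14, by 1.33 (SE 0.13, 95% interval 1.04 to 1.62, limma adjusted p = 1.84e-05). Without the replicate 3 arrays the differences were 1.39 for Ifitm2 and 1.43 for Ifitm3, and both passed the test.

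Ifitm6, the myeloid member, had its readings close to the top of the arrays, whose maxima were at least 14.83. It read 13.90, 13.86 and 14.15 in Gr1lo and 14.26, 14.39 and 14.39 in Gr1hi. The gap between the highest Gr1lo and the lowest Gr1hi array was narrow, smaller than the SD within Gr1lo. The means were 13.97 ± 0.16 and 14.35 ± 0.08, and the difference was 0.38 (SE 0.08, 95% interval 0.20 to 0.57, limma adjusted p = 0.00294; 0.45 without the replicate 3 arrays). With arrays centred on the hybridization controls it was 0.12 and did not pass the test (limma adjusted p = 0.467; 9.73e-06 to 0.467 over all alternatives).

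Ifitm10, a family member whose function is little known, rose from a low level. It read 3.76, 3.75 and 4.22 in Gr1lo and 4.65, 4.97 and 5.18 in Gr1hi, all above the absent-transcript controls. The difference was 1.03 (SE 0.21, limma adjusted p = 0.00231), and 1.06 without the replicate 3 arrays.

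Ifitm5 and Ifitm7 were read at or near background. Ifitm5, the gene of bone-forming cells, read 2.82, 2.75 and 2.77 in Gr1lo, around the highest absent-transcript reading of 2.77, and 3.18, 3.34 and 3.22 in Gr1hi. Its groups were separate, but the size of the difference depends on the background: it was 0.47 (SE 0.10, limma adjusted p = 0.00267) as deposited. With arrays centred on the hybridization controls it was 0.21 (limma adjusted p = 0.314; 1.64e-05 to 0.314 over all alternatives). Ifitm7 read 2.54, 2.61 and 2.53 in Gr1lo and 2.73, 2.58 and 2.41 in Gr1hi, inside the range of the absent-transcript controls. It did not pass the filter and was not tested; its group means, 2.56 and 2.57, overlapped in their spread.

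**Figure D3:**
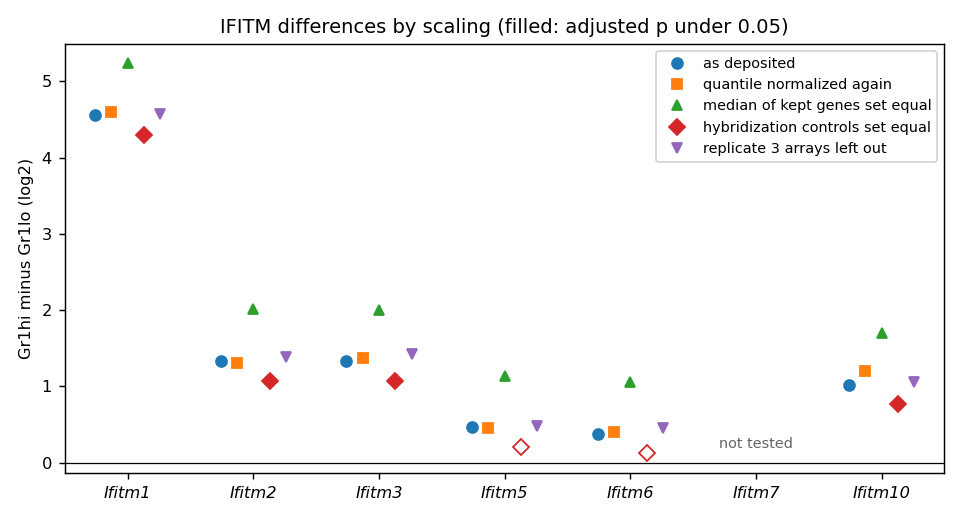
Gr1hi minus Gr1lo (log2) of each IFITM gene under 4 scalings and with the replicate 3 arrays left out; filled symbols passed the limma test at an adjusted p under 0.05. All values are above 0, and the open symbols, Ifitm5 at 0.21 and Ifitm6 at 0.12, are those with the hybridization controls set equal.

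The sizes of the responses were compared pair by pair. For each of the 15 pairs of tested members, the value of 1 gene minus the other was taken on every array and compared between the groups with a two-sided exact permutation test. With 3 arrays a group that test cannot give a p below 0.10. The exact permutation p was 0.10 for 13 pairs (0.115 after Benjamini-Hochberg adjustment over the 15), so no pair passed. The difference of Ifitm1 was larger than that of Ifitm2 by 3.22 (SE 0.62) and than that of Ifitm3 by 3.22 (SE 0.68), with no overlap of the arrays. Ifitm2 and Ifitm3 differed in response by 0.0033 (SE 0.10, exact permutation p = 0.90), with values from -0.06 to 0.08 when 1 array was left out. Pairs with Ifitm5, which read at background in Gr1lo, or with Ifitm6, which read near the top of the arrays, cannot be read as differences in response.

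The arrays of a group also moved together. All 6 tested members were lowest in Gr1hi replicate 1 among the Gr1hi arrays. The same array was the lowest for 34.6% of all genes called higher, and for 23 of the 26 interferon-stimulated antiviral genes called higher. In Gr1lo, 4 of the 6 members (Ifitm2, Ifitm3, Ifitm6 and Ifitm10) were highest in replicate 3, as were 49.3% of all genes called higher. All 9 tested monocyte markers were also highest in Gr1lo replicate 3, and 8 of 9 in Gr1hi replicate 3. Their part in the IFITM levels was not tested. Without those 2 arrays every tested member was called higher, beside 2734 of all 12732 tested genes.

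Profiles over the 6 arrays were compared by Euclidean distance after each gene's own mean was subtracted, among 12731 other genes. The profile nearest to that of Ifitm1 was Tpm4, which encodes a tropomyosin (distance 0.43), followed by Nt5e, the gene of the ecto-nucleotidase CD73 (0.51), Emilin2 (0.67), Bst1 (0.77) and Cd55 (0.79). Tpm4 read 8.76, 6.63 and 8.20 in Gr1lo, low in replicate 2 as Ifitm1 was, and rose by 4.46. The 5 nearest to Ifitm2 were Sntb2, Zfp949, Rara, Nfkbid and Creb3 (0.098 to 0.204). The 5 nearest to Ifitm3 were Unc119, Nfkbid, Kmt5b, Zfp949 and Msmo1 (0.139 to 0.231), so that Nfkbid and Zfp949 stand on both lists. Ifitm3 was the 14th nearest profile to Ifitm2, and Ifitm2 the 13th nearest to Ifitm3, at a distance of 0.245. Nearest to Ifitm6 came D430042O09Rik (0.085), to Ifitm10 Eif4e3 (0.138) and to Ifitm5 Agfg1 (0.065). The other 4 nearest were Espn, Trim61, Lipo2 and Arpc2 for Ifitm6, Slc38a6, Casp4, Mark4 and Smim7 for Ifitm10, and Rac2, Rhoa, Kcmf1 and Bptf for Ifitm5.

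Ifitm5, Ifitm2, Ifitm1, Ifitm3 and Ifitm6 lie next to each other among the protein-coding genes of mouse chromosome 7 in the RefSeq table. Of the 10 flanking genes, 5 on each side, 9 were tested, and their direction depended on the scaling. As deposited 2 were called higher and 5 lower, beside 24.6% and 31.8% of all tested genes. After centring on the median of the tested genes 5 were higher and 0 lower by limma, beside 8344 and 2316 of all 12732 tested genes. With the hybridization controls set equal 0 were higher and 5 lower, beside 1861 and 4849 of all. The 5 genes of the run itself were called higher on the first 2 of these scales, and 3 of them with the hybridization controls set equal. On the side of Ifitm5, Pgghg, which encodes a glucosidase of collagen sugars, rose from 6.89 ± 0.40 to 7.71 ± 0.21 (limma adjusted p = 0.011). Beyond it, Nlrp6 did not pass the filter, and Cox8b (difference -0.24, at or near the absent-transcript level in both groups), the proteasome subunit gene Psmd13 (-0.59) and the mitochondrial deacetylase gene Sirt3 (-0.70) fell. On the side of Ifitm6, B4galnt4 rose by 0.33 from a level near background (limma adjusted p = 0.047), Pkp3 (0.13) and Ano9 (0.15) did not pass the test, and Sigirr (-0.54) and Ptdss2 (-0.49) fell. The falls of Psmd13, Sirt3, Sigirr and Ptdss2 were not called after centring on the median of the tested genes, where Cox8b, Pkp3 and Ano9 were called higher, and the rises of Pgghg and B4galnt4 were not called with the hybridization controls set equal. Sirt3, Cox8b and B4galnt4 were not called without the replicate 3 arrays.

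**Figure D4:**
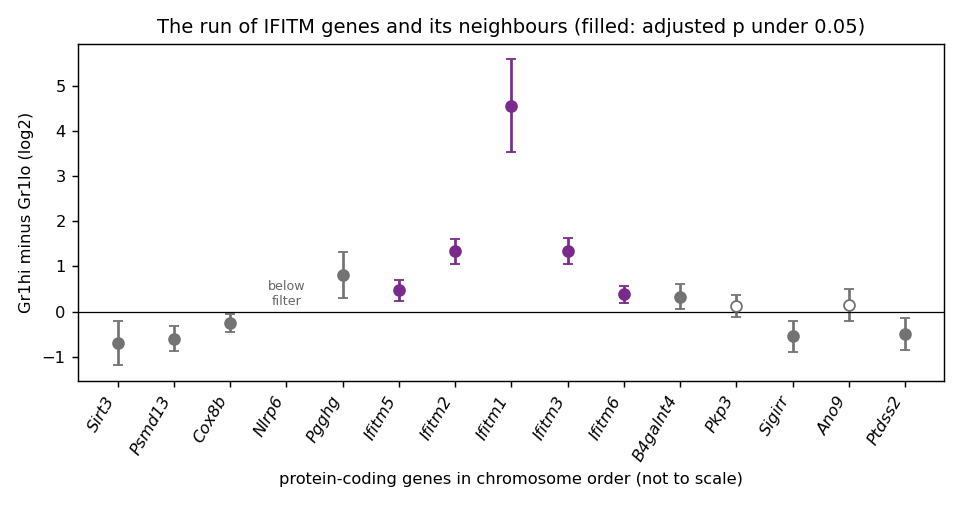
Gr1hi minus Gr1lo (log2, with the 95% interval of the limma fit) of the IFITM run on chromosome 7 (purple) and of 5 protein-coding genes on each side (grey), in chromosome order and not to scale; filled symbols had an adjusted p under 0.05. Ifitm1, in the middle of the run, stands at 4.56, and no flanking gene is above 0.82.

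The 2 members outside the run had mixed neighbours. Next to Ifitm10 lies Ctsd, the gene of the lysosomal protease cathepsin D, which rose from 8.72 ± 0.21 to 10.85 ± 0.09 (difference 2.12, limma adjusted p = 1.23e-06). Syt8 beyond it rose by 0.48 from background, a call lost with the hybridization controls set equal, and the keratin-associated genes Krtap5-1 and Krtap5-4 on the other side did not pass the filter. Ifitm7 lies on chromosome 16 between Mpv17l (difference 0.14, not called) and Bmerb1 (0.37, not called). Further out, Marf1 rose by 1.16 and Pdxdc1 fell by 0.72; centred on the tested genes' median, Pdxdc1 was not called and Mpv17l (0.81) and Bmerb1 (1.05) were called higher. Bmerb1 was also called higher without the replicate 3 arrays (0.56).

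Other interferon-stimulated antiviral genes were higher in Gr1hi as well. Of 36 listed, 33 had a single-symbol probe set and 31 were tested. Of these, 26 were called higher and 1 lower, beside 24.6% and 31.8% of all tested genes. Their median difference was 2.64. After centring on the median of the tested genes 29 were higher and 1 lower, and with the hybridization controls set equal 23 and 3. Of all 12732 tested genes, 8344 and 2316 were called on the former scale, and 1861 and 4849 on the latter. The smallest p-values came in Oasl2 of the oligoadenylate synthetase family (2.40 to 8.83), Ifi27l2a (4.72 to 9.92), Rsad2, which encodes viperin (4.03 to 10.53), and the guanylate-binding protein gene Gbp2 (3.44 to 8.99). Ifit2 fell from 8.41 to 6.12. Oasl2, Ifit1, Ifit3, Usp18, Oas3 and Oasl1 read at or near the absent-transcript level in Gr1lo, so the sizes of their rises depend on the background. Mx1, Bst2, Phf11d and Gbp3 did not pass the test, with differences from -0.49 to 0.28; Gbp3 and Phf11d were called lower with the hybridization controls set equal and without the replicate 3 arrays.

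**Figure D5:**
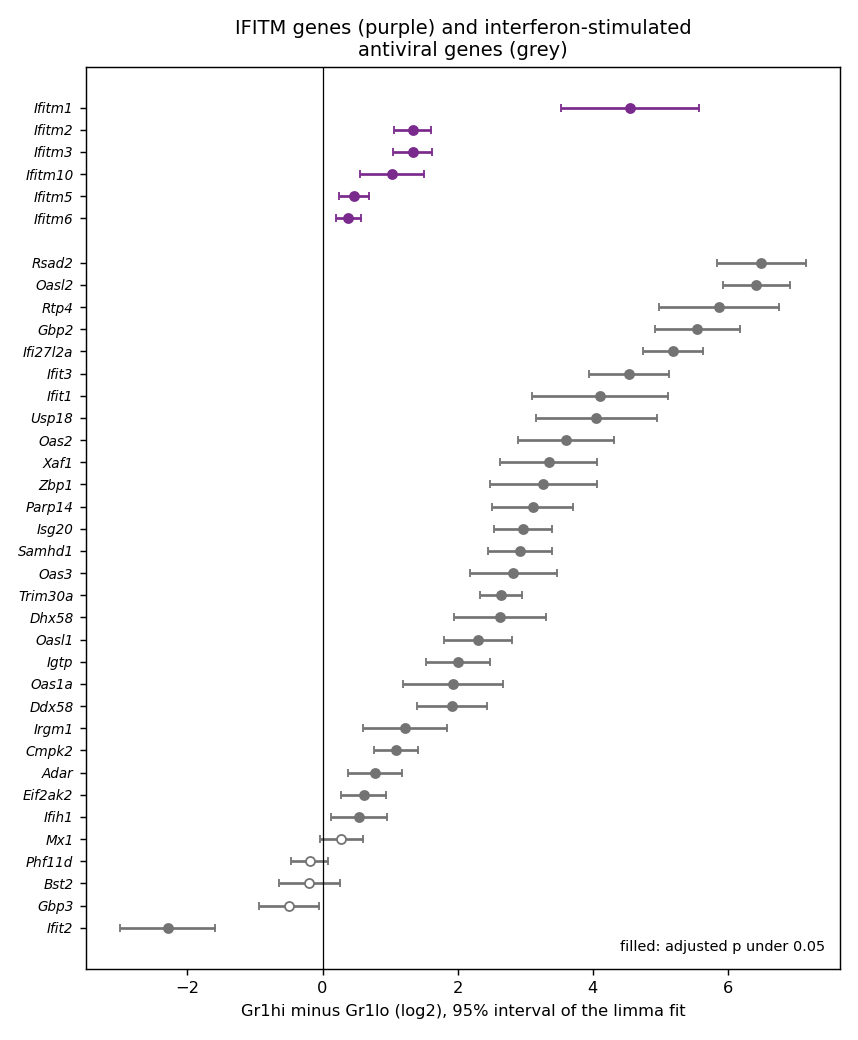
Gr1hi minus Gr1lo (log2) with the 95% interval of the limma fit for the 6 tested IFITM genes (purple) and 31 tested interferon-stimulated antiviral genes (grey); filled symbols had an adjusted p under 0.05. Ifitm1 at 4.56 lies among the upper antiviral genes, Ifitm2 and Ifitm3 at 1.34 and 1.33 among the lower, and Ifit2 at -2.29 is the lowest gene of the plot.

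Genes that carry the interferon signal rose with the IFITM genes. Of 18 listed, 16 were tested: 12 were called higher and 0 lower, beside 24.6% and 31.8% of all tested genes. The counts were 15 and 0 after centring on the median of the tested genes, and 10 and 2 with the hybridization controls set equal. Over all 12732 tested genes they were 8344 and 2316 on the former scale, and 1861 and 4849 on the latter. The median difference of the 16 genes as deposited was 1.15. Ifnar1, a chain of the type I interferon receptor, read 4.74, 5.11 and 5.01 in Gr1lo and 7.36, 7.90 and 8.24 in Gr1hi, a rise of 2.88. Ifngr2, a chain of the interferon gamma receptor, rose by 2.81, whereas its partner Ifngr1 differed by -0.23 and was not called. Among the factors, Irf1 rose by 2.38 and Irf9, which binds the ISRE together with STAT factors, by 2.99. Irf7, an amplifier of type I responses, rose by 2.24 from a level near background. Socs3, an inhibitor of JAK kinases, rose by 5.82, from readings of 5.57, 3.74 and 3.65 to readings of 10.05, 10.13 and 10.24.

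Among genes whose products modify or carry IFITM proteins, shares near those of all tested genes (24.6% higher, 31.8% lower) were called. Of 15 tested of 17 listed, 5 were higher and 5 lower, with a median difference of -0.18. The counts were 11 and 1 after centring on the median of the tested genes, and 2 and 8 with the hybridization controls set equal. Over all 12732 tested genes they were 8344 and 2316 on the former scale, and 1861 and 4849 on the latter. Setd7, a lysine methyltransferase that acts on IFITM3, rose from 10.09 to 11.09, and Zdhhc7, a palmitoyltransferase, from 5.93 to 7.05; both calls held under each of these scalings. Zdhhc20, a further palmitoyltransferase of IFITM3, and Cd9 rose by 0.54 and 0.50, and neither was called with the hybridization controls set equal. Cd81, a tetraspanin that associates with IFITM proteins, fell from 10.99 to 9.77 and did so under each scaling. Nedd4, the ubiquitin ligase of IFITM3, fell by 0.76; centred on the tested genes' median, it differed by -0.08 and was not called.

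Of 7 tested genes of other factors that restrict virus entry, 2 were called higher and 2 lower. These counts were near the shares of all tested genes, 24.6% higher and 31.8% lower. They were 5 and 1 after centring on the median of the tested genes, and 1 and 3 with the hybridization controls set equal. Of all 12732 tested genes, 8344 and 2316 were called on the former scale, and 1861 and 4849 on the latter. Serinc5, whose product is packed into retrovirus particles, rose from 5.95 to 7.60. Ncoa7 fell from 5.76 to 2.76, a level within that of absent transcripts, so the size of its fall depends on the background. Ly6e rose by 0.56 and Zmpste24, which encodes a membrane protease that works with IFITM proteins, fell by 0.44; neither was called without the replicate 3 arrays. Ly6e was also not called with the hybridization controls set equal, nor Zmpste24 when centred on the tested genes' median. Of the 3 tested genes with a CD225 domain outside the IFITM group, Tmem91, Trarg1 and Syndig1l, 0 were called by limma, 0 had an unadjusted p under 0.05, and all 3 read near background. After centring on the median of the tested genes all 3 were called higher, as were 8344 of all 12732 tested genes.

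Several lists of cell type markers differed between the groups too. These are readings of bulk RNA, and the makeup of the sorted cells was not measured. Precursor markers of neutrophils were lower in Gr1hi in 5 of 8 tested genes and higher in 0. Mature neutrophil markers were higher in 6 of 7 and lower in 0. Of all tested genes, 24.6% were called higher and 31.8% lower. The summed level of the mature list was 15.06 to 15.30 in Gr1lo and 16.20 to 16.24 in Gr1hi (log2 of the sum of linear values). Monocyte markers summed to 10.03 to 11.11 in Gr1lo and 11.89 to 12.22 in Gr1hi. Of 9, 1 was called higher (Csf1r, a receptor of monocytes and macrophages, by 4.01) and 1 lower (F13a1). Csf1r, at 11.69 to 11.84 in Gr1hi, made up most of the Gr1hi sums. The median difference of the 9 was -0.05, and Fcgr1 read at the absent-transcript level in Gr1lo. Macrophage markers summed to 10.18 to 10.69 and 9.63 to 10.14, with C1qc, Axl and Mertk at the absent level in both groups. Of its 4 tested genes Vcam1 fell from 10.31 to 5.05, while Cd68 (4.93 to 9.34) and Adgre1 (4.58 to 7.57) rose. Basophil and mast cell markers summed to 9.02 to 9.23 and 7.20 to 8.80, with Cd200r3 at the absent level. Stem and progenitor markers summed to 8.41 to 8.88 and 6.94 to 7.34, with Cd34, Flt3 and Mecom at the absent level. Kit stands on both of these lists, so their sums share 1 gene. It read 8.12 to 8.69 in Gr1lo and 6.03 to 6.77 in Gr1hi, and made up most of the Gr1lo stem and progenitor sums. The other gene called lower was Ms4a2 (-1.64) on the basophil and mast cell list and Hlf (-0.86) on the stem list. Eosinophil markers summed to 8.23 to 8.77 and 8.22 to 8.47, with Epx, Ccr3 and Il5ra at the absent level. T and NK cell markers summed to 5.75 to 6.22 and 8.60 to 8.82; Cd3d differed by 4.17, while Cd3e, Cd3g and Ncr1 stayed at the absent level. Dendritic cell markers summed to 5.60 to 5.78 and 6.44 to 7.13, with Flt3, Cd209a and Xcr1 at the absent level in both groups. Of their tested genes Itgax differed by 3.29, and Bst2 and Siglech were not called. B cell markers summed to 6.21 to 6.38 and 6.12 to 6.52, erythroid markers to 4.81 to 4.87 and 4.91 to 5.05, and megakaryocyte markers to 6.05 to 6.19 and 5.59 to 5.82. Of these lists, Klf1, Hba-a1, Alas2 and Ppbp read at the absent level in both groups, and Cd79a, Pax5 and Epor in Gr1lo. The part of these shifts in the IFITM differences was not tested.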

How the data were processed

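RNA of 6 sorted samples was labelled and hybridised to Affymetrix arrays. The authors deposited log2 values per probe set, made with GCRMA according to the submitters' processing notes; the GCRMA version is not stated there. The table held 45101 probe sets with values from 0.87 to 15.01 and no detection calls, so 3 control probe sets of absent transcripts (up to 2.77) marked the background. Each gene was read from its single-symbol probe set with the highest mean, and tested where at least 3 of 6 arrays lay above the array's 40th percentile. Groups were compared with limma 3.58.1 in R 4.3.3 (two-sided, mean-variance trend, Benjamini-Hochberg adjustment over 12732 genes, threshold 0.05). The fit was first tried on simulated data with 50 changed genes of each size. It called 12% of differences of 0.5, 68% of those of 1, 94% of 2 and 100% of 4, with 7 false calls. The simulation had far fewer changed genes than were called here and no shift of scale.

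The members and gene lists were chosen with earlier results of these data known. Named were all members, up to 4 genes of smallest p per pathway list and those against its majority, 5 neighbours on each side of the run (2 elsewhere) and 5 nearest profiles; other genes were chosen after their values were seen. Alternatives were other filters, probe set rules, scalings, variance models, weights for arrays, a block on replicate number and arrays left out. Promoter sequences came from RefSeq. Summaries and figures used Python 3.11.15, pandas 2.3.3 and matplotlib 3.10.9.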

Additional observations from a re-analysis of the deposited data

How the results depend on the processing

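Ifitm1, Ifitm2, Ifitm3 and Ifitm10 were higher in Gr1hi and passed the limma test under all 18 alternatives, with differences from 3.94 to 5.23, 1.08 to 2.01, 1.08 to 2.01 and 0.77 to 1.70. Each member has 1 probe set, so the probe set rules could not change these differences. The filters, the variance models and the block left them the same too, and changed only the p-values. Ifitm5 and Ifitm6 were called under all alternatives that gave a value for them except arrays centred on the hybridization controls (0.21 and 0.12), so 4 members were called there; Ifitm5 was left out by the filter at the 60th percentile. That scale shifts every gene of an array by 1 constant; no value here shows which scale lies nearest to RNA amounts. Leaving out single arrays gave 3.94 to 5.03 for Ifitm1, 1.25 to 1.45 for Ifitm2, 1.23 to 1.48 for Ifitm3, 0.42 to 0.50 for Ifitm5, 0.33 to 0.47 for Ifitm6 and 0.90 to 1.18 for Ifitm10. Without a filter Ifitm7 differed by 0.01 (limma adjusted p = 0.939).

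With each probe set tested on its own, 12751 probe sets of 22695 were called (5947 higher, 6804 lower). Centring on the median of the tested genes gave 8344 higher and 2316 lower, and centring on the hybridization controls gave 1861 higher and 4849 lower. The small difference in response between Ifitm2 and Ifitm3 changed sign after repeated quantile normalization (-0.0702) and without Gr1lo replicate 2 (-0.0149), Gr1lo replicate 3 (-0.0599), Gr1hi replicate 2 (-0.0486) or both replicate 3 arrays (-0.0422). That between Ifitm5 and Ifitm6 did so without Gr1lo replicate 3 (-0.00974). Their highest values, 0.0845 and 0.142, came without Gr1lo replicate 1. The cause was not tested. With the replicate number as a block 7056 genes were called against 7177, the 6 members were called as before, and not every array correlated best with its own number. Same-numbered arrays correlated by 0.166, 0.004 and 0.145 in their deviations from the group means. Replicates 1 and 3 of each group correlated best with their own number, and replicate 2 did not. The labels name no pairing beyond the number, so the main fit did not use it. Whether same-numbered arrays share a source was not tested. Readings near 2.77 cannot be told from absent transcripts, which limits Ifitm5 and Ifitm7.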
